A study of Homo sapiens with 9 samples.

Results

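This report follows 10 genes that are commonly used as stemness markers, SOX2, KLF4, POU5F1, NANOG, LIN28B, PROM1, ALDH1A1, ALDH1A3, LGR5 and BMI1, among the 27111 genes listed for each library. They were picked by gene symbol. RNA-seq was performed on multicellular tumor spheroids (MTSs) of PC-3, an established human prostate cancer line derived from a bone metastasis. All 3 lines had been infected with lentiviral particles and selected with puromycin, and they carried either an empty vector (Empty) or murine cDNA of the long (NF-YAl) or short (NF-YAs) splice isoform of NF-YA. Each group had 3 libraries, labelled A, B and C for Empty and NF-YAs and A, B and D for NF-YAl, and each library was made from pooled MTSs of 1 stable line, so that a difference between groups is also a difference between lines. Endogenous NF-YA was still present in every line.

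NF-YA is the DNA-binding subunit of the trimeric transcription factor NF-Y, which recognises the CCAAT box of promoters, and its splice isoforms differ in the transactivation domain. SOX2, KLF4, POU5F1 (OCT4) and NANOG are transcription factors of the pluripotency network, and LIN28B is an RNA-binding protein that blocks maturation of let-7 microRNAs. PROM1 (CD133), the aldehyde dehydrogenases ALDH1A1 and ALDH1A3, the R-spondin receptor LGR5 and the polycomb protein BMI1 are used to mark stem or progenitor cells of adult tissues and tumors.

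Because NF-Y reads the CCAAT box, the promoters of these genes are shown first. RefSeq start sites of GRCh38.p14 were given for 8 of the 10 genes, the exceptions being POU5F1 and LGR5. In the 250 bases upstream of each start site, CCAAT was searched on both strands (read as ATTGG when it lies on the strand opposite the gene). It was present for SOX2, LIN28B, PROM1, ALDH1A1 and ALDH1A3 and not for KLF4, NANOG or BMI1. Among all RefSeq genes, 37% had the motif upstream of at least 1 start site, and 32.0% of all start sites had it. The windows of 85 bases are written 5′ to 3′ on the gene's strand, with the motif in capitals. They lie at chr3:181711838-181711922 (+, SOX2), chr6:104956940-104957024 (+, LIN28B), chr4:16084032-16084116 (-, PROM1), chr9:72953083-72953167 (-, ALDH1A1) and chr15:100879720-100879804 (+, ALDH1A3).
SOX2: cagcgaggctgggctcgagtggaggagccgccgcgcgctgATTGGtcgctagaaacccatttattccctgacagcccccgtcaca
LIN28B: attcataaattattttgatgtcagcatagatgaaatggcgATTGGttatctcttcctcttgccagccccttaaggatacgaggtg
PROM1: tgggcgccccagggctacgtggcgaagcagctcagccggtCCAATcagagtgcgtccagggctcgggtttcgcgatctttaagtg
ALDH1A1: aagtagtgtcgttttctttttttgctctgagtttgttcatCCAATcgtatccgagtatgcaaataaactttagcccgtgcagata
ALDH1A3: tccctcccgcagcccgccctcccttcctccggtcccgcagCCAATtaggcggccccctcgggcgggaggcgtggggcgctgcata
The motif lay 42 bases before the start site for SOX2, 66 for ALDH1A3 and 69 for ALDH1A1. It lay 48 bases before the first of 4 start sites of PROM1 and 122 before the second of 2 of LIN28B. The other start sites of PROM1 and LIN28B had no match. A match of these letters describes the sequence and is not evidence of binding.

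Library totals were 18076979 to 27163976 expected counts. Expected counts are RSEM's estimates of the reads of a gene, and CPM are these counts scaled to library size by TMM. NF-YAl D stood apart: the 515 small structural RNA genes took 19.9% of its TPM and 43.5 to 57.7% in the other 8 libraries, so that deposited TPM of messenger RNAs run high in it. Values of the members are therefore given in CPM, and results that rest on this library are also given without it. NFYA itself rose in both overexpressing lines, with 341 ± 49.3 CPM in NF-YAl and 261 ± 5.71 CPM in NF-YAs against 91.8 ± 4.24 CPM in Empty (mean ± SD, n = 3), and reads of the murine cDNA and of the human gene cannot be told apart in this count. The epithelial keratins KRT8, KRT18 and KRT19 with VIM and CD44 were abundant, whereas EPCAM was at 0.61 to 0.90 TPM in Empty. In NF-YAl against Empty, KRT8 was called lower (log2FC -1.33, adjusted p = 2.5e-06 in edgeR). KRT18 was at -0.42, KRT19 at -0.71, VIM at 0.28 and CD44 at -0.84 there, not called. In NF-YAs the log2FC of KRT8, KRT18, KRT19, VIM and CD44 were -0.78, -0.49, -0.79, 0.55 and -0.58, and none was called. KLK3, which PC-3 lacks, was at 0 in all libraries. The 8 markers of leukocytes, endothelium and muscle summed to 3.11 to 4.08 TPM in Empty, 2.08 to 4.31 in NF-YAl and 2.35 to 3.0 in NF-YAs, with CD3E at 0 in all NF-YAl and NF-YAs libraries. These sums are in TPM, and the range for NF-YAl includes NF-YAl D, where TPM run high. Of the 4 tested markers, 1 was called lower in each line, named here after their values were seen. VWF, which encodes von Willebrand factor, fell in NF-YAl (log2FC -3.23, adjusted p = 1.92e-06 in edgeR) and was at -0.14 in NF-YAs (adjusted p = 0.604). PECAM1, an adhesion molecule of endothelium, fell in NF-YAs (-1.73, adjusted p = 4.8e-05) and was at -0.17 in NF-YAl (adjusted p = 0.515). The part of these markers in the results was not tested.

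All 10 genes had more than 3 counts in at least 1 library, and 8 had so in every library. PROM1 and ALDH1A1 did not, and they were not tested because they failed the filter on low counts. Per length, ALDH1A3 was by far the most abundant in Empty MTSs, with 362 ± 24.9 CPM per kb. It was followed by BMI1 with 23.7 ± 1.84, KLF4 with 15.9 ± 2.21, POU5F1 with 13.1 ± 4.33 and NANOG with 1.46 ± 0.330 CPM per kb. SOX2 (0.246 ± 0.0668), LGR5 (0.174 ± 0.0658), PROM1 (0.153 ± 0.0863), ALDH1A1 (0.0718 ± 0.0466) and LIN28B (0.0603 ± 0.0220) were below 1 CPM per kb. KLF4 and POU5F1 did not differ beyond their spread, nor did neighbours in the order from SOX2 to LIN28B. In the deposited TPM, LGR5 was at 0.14 to 0.34 TPM with the empty vector, at 2.12 to 4.15 TPM with NF-YAl and at 1.68 to 2.30 TPM with NF-YAs. KLF4 ranged from 14.2 to 21.0 TPM with the empty vector and from 8.51 to 11.8 TPM with NF-YAs, and NF-YAl D was at 25.2 TPM, above every Empty library, with 9.68 and 8.18 TPM in NF-YAl A and B. BMI1 was likewise at 60.4 TPM in NF-YAl D and at 14.3 to 30.9 TPM in the others.

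**Figure D1:**
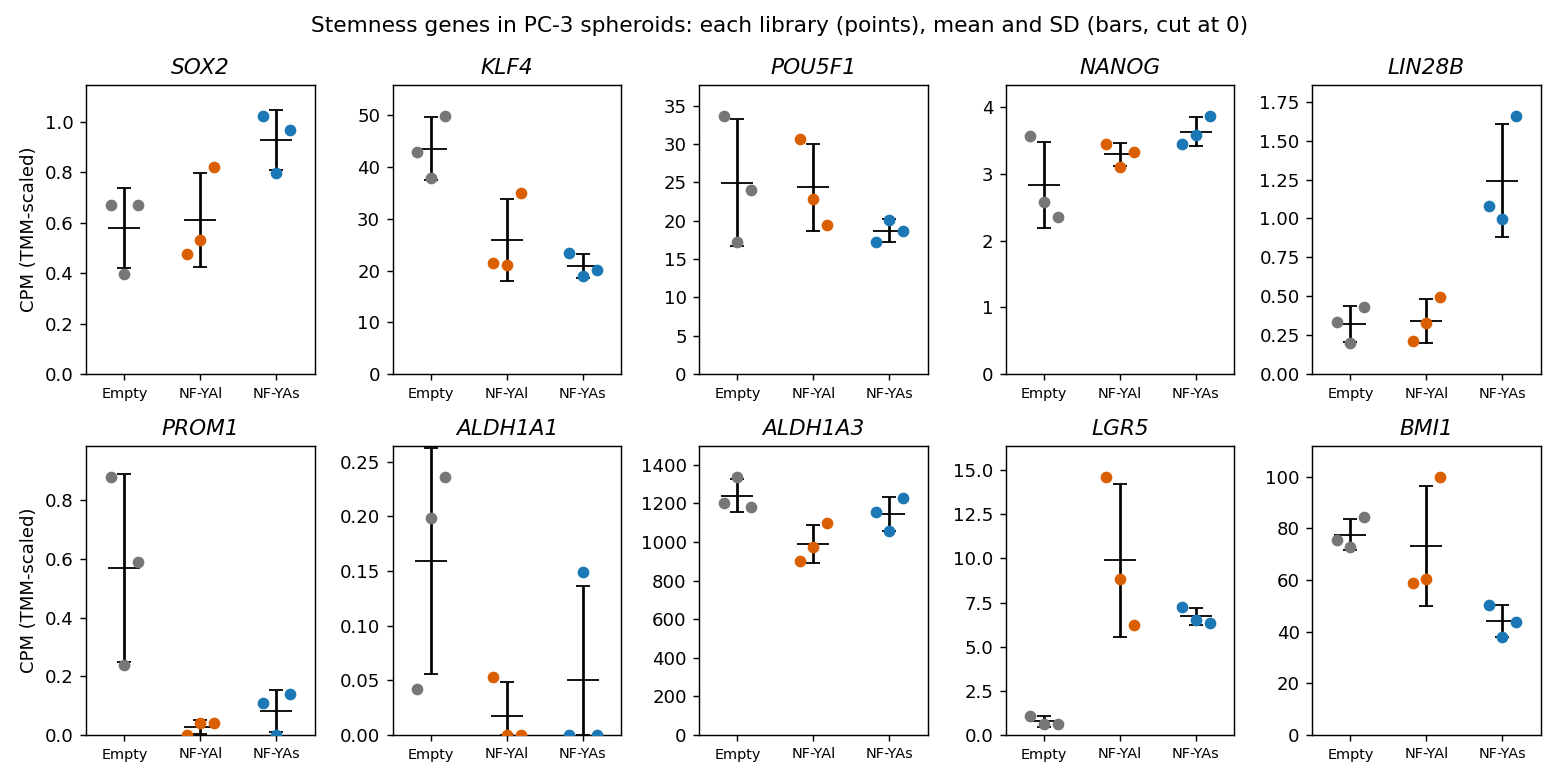
TMM-scaled CPM of the 10 stemness genes in each library (points), with the mean and SD of the 3 libraries of a group (bars), on linear axes that start at 0 and differ between genes. LGR5 is higher in all 6 overexpressing libraries than in Empty, LIN28B is higher in NF-YAs alone, and KLF4 and PROM1 are lower in both lines than in Empty.

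Genes were called differentially expressed (DEGs) in edgeR's quasi-likelihood test where the adjusted p was under 0.01 and the |log2FC| exceeded 1. In NF-YAl against Empty, 1 of the 8 tested genes was called higher, LGR5, where 4.76% of all tested genes were called higher. None was called lower, against 3.50% of all tested genes, and 2 of the 8 had an unadjusted p under 0.05 and a lower value, KLF4 and ALDH1A3. DESeq2 also called 0 lower. At any fold change, 2 of the 8 passed the adjusted threshold, LGR5 and KLF4, against 19.6% of all. The libraries of the groups did not overlap for 4 of the 10 genes, LGR5 (higher) and KLF4, PROM1 and ALDH1A3 (lower), against 39.3% of all genes with more than 3 counts in a library. The median log2FC of the 8 tested genes was 0.03, and that of all tested genes was 0.01.

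In NF-YAs against Empty, LGR5 and LIN28B were called higher (2 of 8, against 5.44% of all genes) and KLF4 was called lower (1 of 8, against 3.90%). With BMI1, 4 of the 8 passed the adjusted threshold at any fold change, against 22.6%. Libraries did not overlap for 6 of the 10 genes, SOX2, LIN28B and LGR5 (higher) and KLF4, PROM1 and BMI1 (lower), against 52.0% of all. The medians were 0.12 for the tested members and -0.0026 for all tested genes. Both comparisons use the same Empty libraries.

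Set directly against NF-YAs, NF-YAl had lower LIN28B, which was called (1 of 8, against 2.86% of all). None was called higher, against 1.74% of all, by edgeR or by DESeq2, and BMI1 had an unadjusted p under 0.05. At any fold change, 1 of 8 passed the adjusted threshold, against 11.0%. Libraries did not overlap for LIN28B and BMI1 (2 of 10, against 36.6%).

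**Figure D2:**
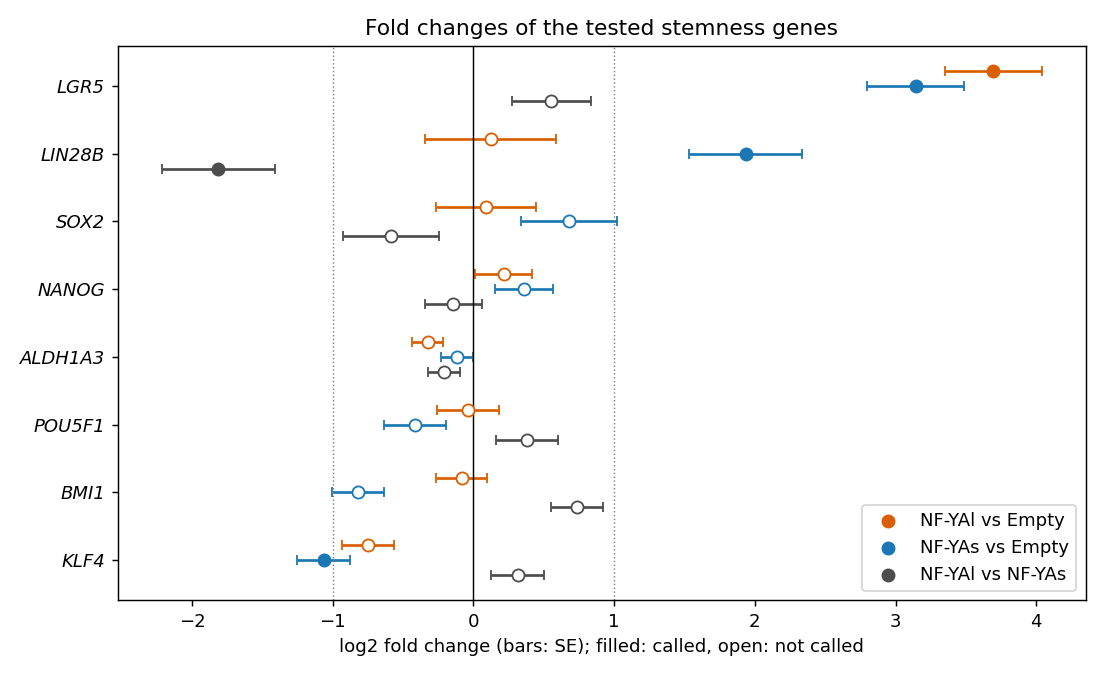
Log2FC with SE of the 8 tested stemness genes in the 3 comparisons from edgeR, where filled points were called, open points were not, and dotted lines mark the fold threshold of 1. LGR5 lies at 3.69 and 3.14 over Empty, and LIN28B is the one gene called between NF-YAl and NF-YAs, at -1.81.

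In GRCh37 the genes called in a comparison lie at chr12:71833578-71980090 (+, LGR5), chr6:105384491-105531207 (+, LIN28B) and chr9:110247133-110252763 (-, KLF4), all annotated as protein coding. TSPAN8 overlaps LGR5 and LIN28B-AS1 overlaps LIN28B on the opposite strand, and whether counting used strand was not stated, so reads of the overlaps cannot be told apart.

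LGR5, the receptor for R-spondins that enhances Wnt signalling and marks intestinal stem cells, had 26, 15 and 15 counts in Empty A, B and C (1.09, 0.596 and 0.590 CPM). It had 276, 216 and 151 counts in NF-YAl A, B and D (14.6, 8.83 and 6.20 CPM). In NF-YAs A, B and C it had 135, 131 and 138 counts (7.27, 6.52 and 6.36 CPM). Every overexpressing library was above every Empty library, and the 2 overexpressing groups overlapped. LGR5 rose by a log2FC of 3.69 ± 0.343 (SE) in NF-YAl (adjusted p = 1.2e-05) and 3.14 ± 0.346 in NF-YAs (adjusted p = 3.28e-05). NF-YAl exceeded NF-YAs by 0.55 ± 0.281 (adjusted p = 0.177), which did not pass the test. Without any 1 of the 9 libraries the rise stayed called, at 3.31 to 4.05 in NF-YAl and 2.99 to 3.49 in NF-YAs.

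LIN28B was scarce throughout. Empty A, B and C held 8, 5 and 11 counts, NF-YAl A, B and D 4, 8 and 12, and NF-YAs A, B and C 20, 20 and 36. All NF-YAs libraries were above all others, and Empty and NF-YAl overlapped. LIN28B rose in NF-YAs by 1.94 ± 0.402 (adjusted p = 0.00271) and was at 0.12 ± 0.465 in NF-YAl (adjusted p = 0.875). It was lower in NF-YAl than in NF-YAs by a log2FC of -1.81 ± 0.403 (adjusted p = 0.00743). These calls rest on few counts. The rise in NF-YAs was no longer called without Empty A (adjusted p = 0.0119), Empty B (0.0156) or NF-YAs C (0.0191). The direct difference was lost in 7 of the 9 leave-outs, with log2FC between -2.16 and -1.55 and adjusted p up to 0.047, and was kept without Empty B or NF-YAl D.

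KLF4, a zinc-finger factor of epithelial differentiation and reprogramming, had 1022, 952 and 1267 counts in Empty (42.9, 37.8 and 49.9 CPM). NF-YAl A, B and D had 404, 517 and 853 (21.4, 21.1 and 35.0 CPM). NF-YAs had 434, 381 and 437 (23.4, 19.0 and 20.1 CPM). All 6 overexpressing libraries were below Empty, with NF-YAl D closest to it. KLF4 fell in NF-YAs by 1.06 on the log2 scale (SE 0.187, adjusted p = 0.000909). In NF-YAl the log2FC was -0.75 ± 0.185 (adjusted p = 0.00852), past the adjusted threshold and short of the fold threshold. Without NF-YAl D it was -1.03 (adjusted p = 7.59e-05) and was called. The call in NF-YAs was lost without Empty C (-0.96) or NF-YAs B (-0.999), on the fold threshold alone. The 2 lines did not differ beyond the test's threshold (0.32 ± 0.188, adjusted p = 0.247).

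BMI1, a component of polycomb repressive complex 1, had 75.5, 72.9 and 84.3 CPM in Empty. It had 58.8, 60.6 and 100.1 CPM in NF-YAl A, B and D, and 50.3, 37.8 and 43.9 CPM in NF-YAs. NF-YAs was below all other libraries, while NF-YAl D was the highest of the 9. In NF-YAs the log2FC was -0.82 ± 0.185 (adjusted p = 0.00452), below the fold threshold. In NF-YAl it was -0.08 ± 0.182 (adjusted p = 0.774), and -0.38 without NF-YAl D (adjusted p = 0.0208). NF-YAl was above NF-YAs by 0.73 ± 0.185 (adjusted p = 0.0141) and by 0.44 without NF-YAl D. The read-through transcript COMMD3-BMI1, which shares BMI1 sequence, had 0 to 147 counts, highest in NF-YAl D. NF-YAs A, B and C held 0, 0 and 16.45 of them. Its log2FC was -2.78 in NF-YAs against Empty (adjusted p = 0.0258 in edgeR). In NF-YAl it was above NF-YAs by 3.66 (adjusted p = 0.00868), which was called. With BMI1 and COMMD3-BMI1 summed, the log2FC in NF-YAs against Empty was -0.85 (adjusted p = 0.00425).

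SOX2 had 16, 10 and 17 counts in Empty, 9, 13 and 20 in NF-YAl A, B and D, and 19, 16 and 21 in NF-YAs (0.671, 0.397 and 0.669 CPM, 0.477, 0.532 and 0.822 CPM, and 1.02, 0.796 and 0.968 CPM). NF-YAs libraries were above all Empty libraries in CPM and overlapped NF-YAl. The log2FC was 0.68 ± 0.341 in NF-YAs (adjusted p = 0.144) and 0.09 ± 0.353 in NF-YAl (adjusted p = 0.878). At this depth no difference in SOX2 was detectable. SOX2 lies within SOX2-OT on the same strand, which had 1 to 16 counts.

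NANOG was at 2.36 to 3.56 CPM in Empty, 3.11 to 3.45 in NF-YAl and 3.45 to 3.87 in NF-YAs, with overlap between all groups. Its log2FC was 0.22 ± 0.204 in NF-YAl (adjusted p = 0.458) and 0.36 ± 0.204 in NF-YAs (adjusted p = 0.192). Reads of NANOG pseudogenes that the files do not list could count on it. POU5F1 was at 33.7, 17.2 and 24.0 CPM in Empty A, B and C, at 30.7, 22.9 and 19.5 CPM in NF-YAl A, B and D, and at 17.2, 20.2 and 18.7 CPM in NF-YAs A, B and C. The groups overlapped, and the spread in Empty exceeded both differences. The log2FC was -0.04 ± 0.218 in NF-YAl (adjusted p = 0.916) and -0.42 ± 0.221 in NF-YAs (adjusted p = 0.163). The related POU5F1B, POU5F1P3 and POU5F1P4, which share sequence with it, had 22.9 to 73.9, 3 to 16.9 and 6 to 27.2 counts, and reads could be split among them.

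The gene-level POU5F1 count hides which transcript was sequenced. The transcript of isoform 1 (OCT4A, the form with the pluripotency function), NM_002701.5, had 0 to 2.23 counts in any library and took at most 0.74% of the POU5F1 TPM. Nearly all of the count went to NM_203289.5 and NM_001285987.1, which are both 2065 nt long. Between replicates of the same group their shares moved from 0 to 89.6% for NM_001285987.1 and from 0.79 to 89.9% for NM_203289.5. The share of NM_001285987.1 was 50.1, 6.16 and 32.3% in Empty A, B and C and 82.4, 89.6 and 0% in NF-YAs A, B and C. For NANOG, NM_001297698.1 took 100% in NF-YAl D, 26.6% in Empty B and 0 elsewhere. The main ALDH1A3 transcript kept 87.7 to 95.4% and the main KLF4 transcript 81.3 to 96% in all libraries. Of 15 exact permutation tests of main transcript shares (2-sided), the smallest p was 0.1 (ALDH1A3, NF-YAs against Empty), which is the smallest that 3 against 3 allows, and all adjusted p were 1.

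**Figure D3:**
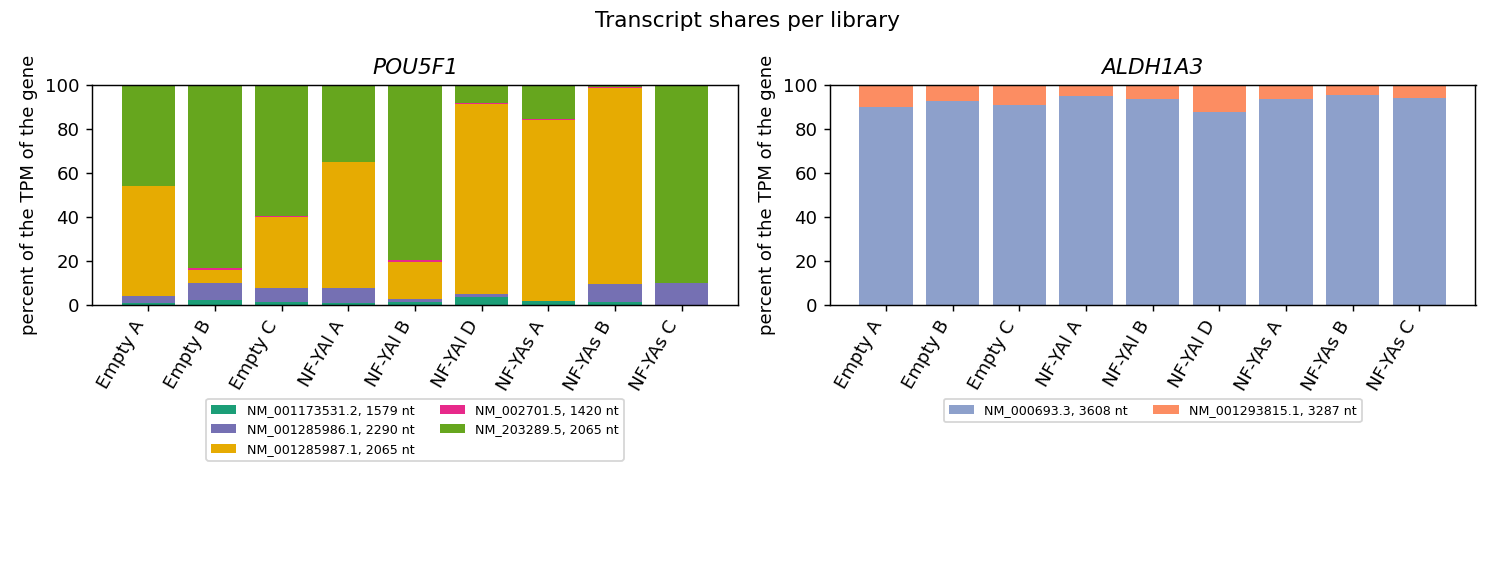
Share of the gene's TPM taken by each RefSeq transcript of POU5F1 (left) and ALDH1A3 (right) in each library, as the deposited percent of the gene. The POU5F1 transcripts of 2065 nt trade places between replicates of 1 group, whereas the main ALDH1A3 transcript stays between 87.7 and 95.4%.

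ALDH1A3, a retinaldehyde-oxidising enzyme and the most abundant member, had 1202, 1338 and 1182 CPM in Empty. NF-YAl had 899, 971 and 1098 CPM and NF-YAs had 1153, 1054 and 1226 CPM. NF-YAl was below every Empty library, and NF-YAs overlapped both. The log2FC was -0.33 ± 0.112 in NF-YAl (adjusted p = 0.042) and -0.12 ± 0.112 in NF-YAs (adjusted p = 0.452), both under the fold threshold. PROM1, a cholesterol-binding membrane protein, had 21, 6 and 15 counts in the Empty libraries. NF-YAl A, B and D held 0, 1 and 1 counts and the NF-YAs libraries 2, 0 and 3. The overexpressing libraries were all at or under 3 counts, and with a floor of 3 counts per library PROM1 came out at least 4.22-fold lower for NF-YAl and at least 3.81-fold lower for NF-YAs. Without the filter on low counts edgeR gave adjusted p = 0.00257 and 0.013. ALDH1A1, a close relative of ALDH1A3, had 1, 5 and 6 counts in the Empty libraries. It had 1, 0 and 0 with NF-YAl and 0, 3 and 0 with NF-YAs. These counts lie near the floor and no fold is given.

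The related genes come from lists of the same families and pathways, and those named are plotted by list. In the pluripotency list, DPPA2, an embryonic stem cell factor, was called higher in both lines. Empty libraries held 0 to 2 of its counts, and against the floor its level was at least 23.0-fold higher with NF-YAl and at least 6.34-fold higher with NF-YAs. Of the 19 tested genes of this list, 1 was called higher in NF-YAl, and 2 were called higher and 1 lower in NF-YAs (DPPA2 and TRIM71, and KLF2). TRIM71 was lost without Empty B, Empty C or NF-YAs A, where its log2FC lay between 1.16 and 1.41. In NF-YAl TRIM71 was at 0.64 (adjusted p = 0.0813 in edgeR). Of 13 SOX genes, SOX18 was called higher in both lines, with log2FC of 1.71 and 2.89. SOX5 (2.45) was called higher and SOX6 (-1.91) and SOX8 (-1.27) lower in NF-YAs, and SOX30 (-1.32) lower in NF-YAl. In NF-YAl SOX5 was at -0.06, SOX6 at -0.81 and SOX8 at 0.13. In NF-YAs SOX30 was at -1.04 (adjusted p = 0.0222 in edgeR). SOX5 had 2 to 7 counts in Empty and NF-YAl, and its calls were lost in most leave-outs, as was that of SOX30, and that of SOX8 without Empty C or NF-YAs B. Of 13 KLF genes, KLF17 fell in both lines, with log2FC of -2.53 and -2.96. KLF2 was called lower in NF-YAs (-1.44) and was at -0.76 in NF-YAl (adjusted p = 0.0413 in edgeR).

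In the LIN28 and let-7 list of 17 genes, 2 were called higher and 1 lower in NF-YAl, while NF-YAs had 4 and 1. MYCN, a let-7 target, had 0 to 3 counts in Empty and rose at least 18.6-fold with NF-YAl and at least 23.6-fold with NF-YAs. IGF2BP1, an RNA-binding protein repressed by let-7, was 2.57 ± 0.334 above Empty in NF-YAs, -0.14 ± 0.364 in NF-YAl, and lower in NF-YAl than in NF-YAs by a log2FC of -2.72. IGF2BP3 was called higher in both lines (1.07 and 1.26), and ARID3B lower in both (-1.03 and -1.30). Both were lost in NF-YAl without NF-YAl A or D. In the polycomb list of 26, CBX2 was called lower in both lines (-1.08 and -1.02). Its call was lost in NF-YAl without NF-YAl A and in NF-YAs without Empty B or NF-YAs A. PHC1 was called higher in NF-YAs (1.39). In NF-YAl PHC1 was at 0.97 (adjusted p = 0.000398 in edgeR), short of the fold threshold alone.

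Of 15 tested aldehyde dehydrogenases, ALDH3A1 fell in both lines (-2.42 and -2.70) and 13 in each line were not called. ALDH5A1 was called higher in NF-YAl (1.10) and ALDH3A2 lower in NF-YAs (-1.25). The other line moved the same way, short of the fold threshold alone. ALDH5A1 was at 0.72 in NF-YAs (adjusted p = 0.0004 in edgeR) and ALDH3A2 at -0.52 in NF-YAl (adjusted p = 0.0038). In the retinoic acid list of 17 tested genes, 3 were called higher and 2 lower in each line. For this list and the aldehyde dehydrogenases, the shares of all tested genes were 4.76% higher and 3.50% lower in NF-YAl. In NF-YAs they were 5.44% and 3.90%. RARB, a retinoic acid receptor, rose by 1.79 in NF-YAl, not without Empty A or B, and by 3.66 in NF-YAs. CRABP1, which binds retinoic acid in the cytoplasm, rose in NF-YAl by 3.60 and was at -0.39 in NF-YAs. CYP26B1, which degrades retinoic acid, rose in NF-YAs by 2.29 and was at -0.38 in NF-YAl. RBP4 (-1.73 and -2.50) and the retinol dehydrogenase DHRS9 (-3.45 and -2.22) were called lower in both.

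Of 8 tested genes of the LGR5 and R-spondin list, 2 were called higher and 1 lower in NF-YAl, and NF-YAs had 2 called higher. Over all tested genes these shares were 4.76% and 3.50% in NF-YAl and 5.44% in NF-YAs. LEF1, a Wnt transcription factor with at most 3 counts in Empty, rose on average at least 3.79-fold with NF-YAl and at least 16.3-fold with NF-YAs. In NF-YAl its libraries overlapped those of Empty, with 2 counts in NF-YAl A, below the floor. The call in NF-YAl was at an adjusted p of 0.00999 in edgeR. AXIN2, a Wnt target, was at 1.05 and 1.27, and its NF-YAl call was lost without any 1 of the Empty libraries or NF-YAl B. RNF43, a ubiquitin ligase that removes Wnt receptors, was at -2.36 in NF-YAl and -0.40 in NF-YAs. Among 19 tested surface markers, 4 were called higher and 2 lower in NF-YAl, and 4 higher and 3 lower in NF-YAs. MCAM (2.996 and 3.17) and EPCAM (2.16 and 1.46) rose in both lines. ENG was called higher in NF-YAs (2.57) and was at 0.99 in NF-YAl (adjusted p = 0.011 in edgeR). CXCR4 was called lower in NF-YAs (-1.53) and was at -0.11 in NF-YAl. PROM2, a relative of PROM1, was called lower in NF-YAl (-1.68). In NF-YAs PROM2 was at -0.92 (adjusted p = 0.00746), short of the fold threshold alone.

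**Figure D4:**
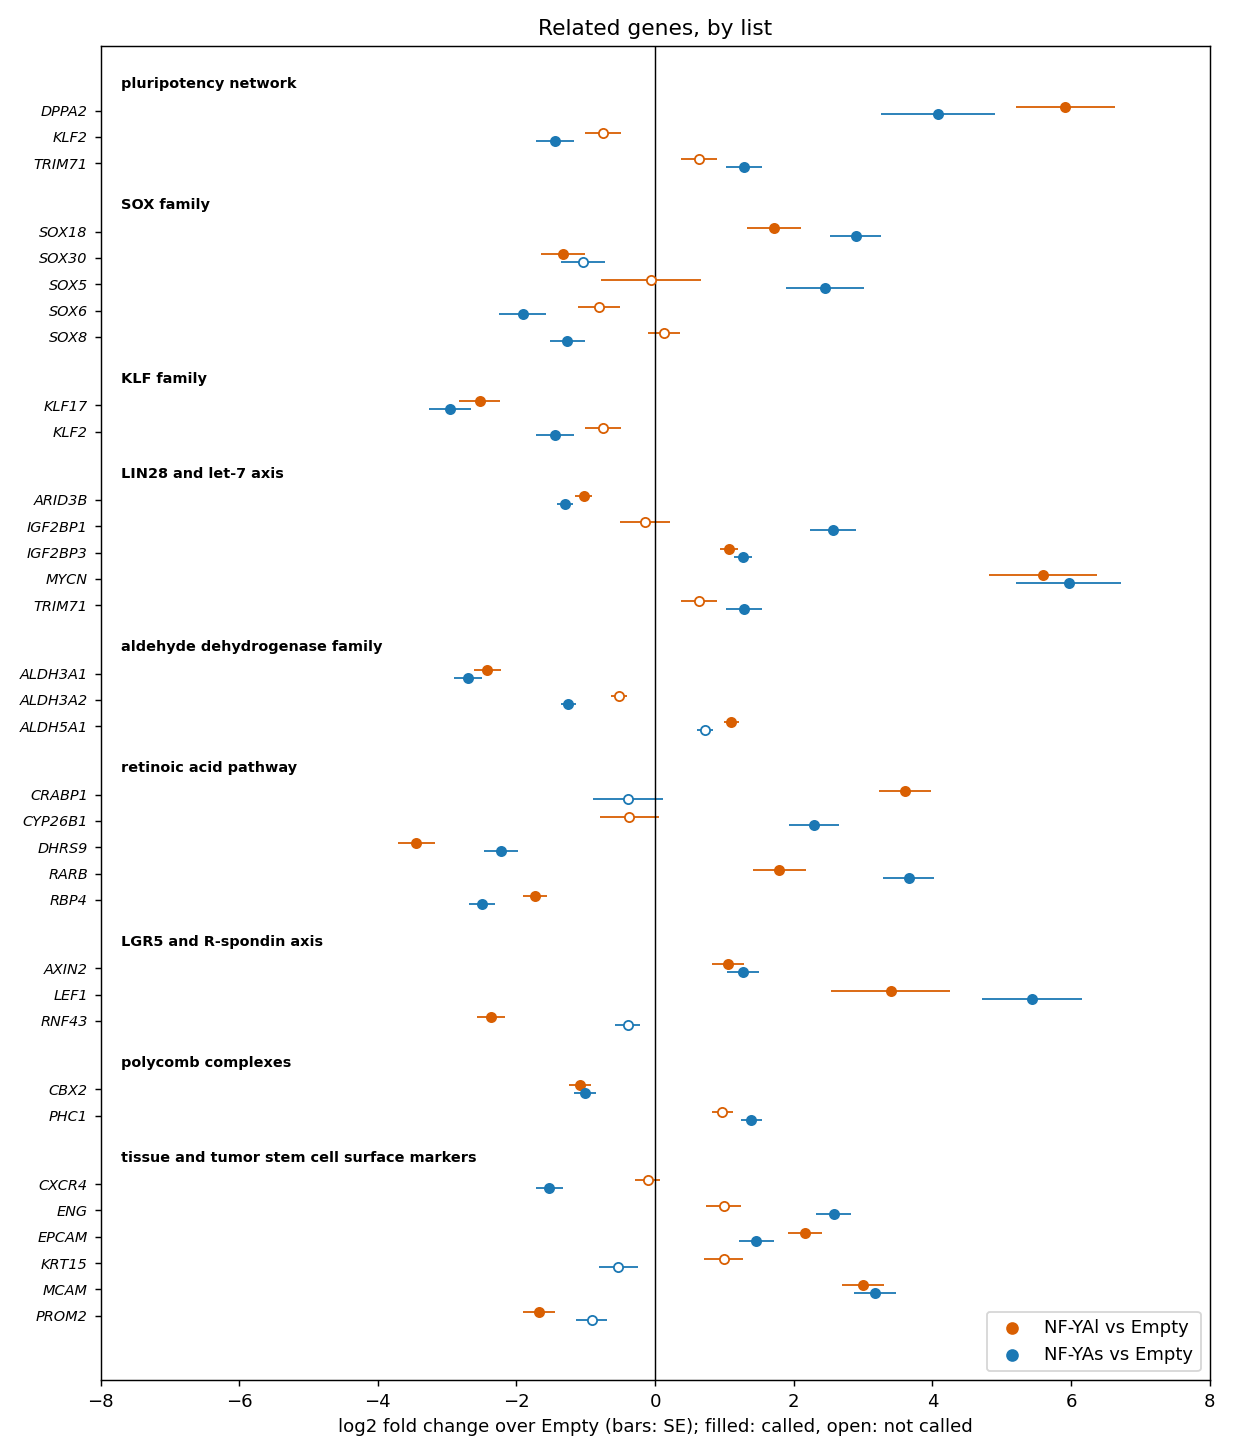
Log2FC with SE over Empty of the named genes of the related lists in NF-YAl (orange) and NF-YAs (blue), where filled points were called and open points were not. KLF17, ALDH3A1, DHRS9 and RBP4 lie left of 0 in both lines, and MYCN, MCAM and EPCAM right of it, while CRABP1 and CYP26B1 differ between lines.

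The genes most like each called member over the 9 libraries, by Pearson correlation of log2 CPM, are given as a description, since these libraries share their groups. For LGR5 they were CDH12 (0.997), CSGALNACT1 (0.996) and BMP6 (0.995). For KLF4 they were YOD1 (0.987), LSMEM1 (0.986) and ME1 (0.985), and for LIN28B they were WDR66 (0.981), MSX1 (0.966) and IGF2BP1 (0.965).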

How the data were processed

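RNA was sequenced from MTSs of the 3 lines after a stranded total RNA library preparation, per the labels. Reads were aligned by the authors to human transcripts of hg19 with Bowtie2 within RSEM. For each gene and transcript the authors deposited expected counts, not normalized, with TPM and FPKM (FPKM not used here), lengths and effective lengths in bases, and for transcripts the percent of the gene's TPM. Use of strand in counting is not given in the sources used here.

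Rounded expected counts entered edgeR 4.0.16, run in R 4.3.3 (filterByExpr, TMM, 17108 genes, 9 libraries in 1 fit, quasi-likelihood F test, Benjamini-Hochberg adjustment over all tested genes). SE is |log2FC| over the square root of F. DEGs were called with the study's thresholds, an adjusted p under 0.01 with a |log2FC| over 1. DESeq2 1.42.0 and limma 3.58.1 on log2(TPM + 0.5) served as alternatives. The floor was 3 counts per library, for counting error only. The edgeR, block and DESeq2 fits were tested on simulated data. The libraries are described as independent experiments; p-values measure the spread between them. Named genes of a list were up to 4 called genes per comparison with the largest |log2FC| whose libraries did not overlap and whose higher group averaged 1 CPM or more. Promoters were RefSeq, GRCh38.p14. The members and lists were chosen with earlier results of these data known. Some genes of the lists are not reported here.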

Additional observations from a re-analysis of the deposited data

Results flagged for a closer look

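These genes differed between the NF-YAl and NF-YAs lines in the direct edgeR comparison, which is a test of the difference between their changes over the shared Empty libraries. CRABP1 (log2FC of NF-YAl over NF-YAs 3.996), PECAM1 (1.56), KRT15 (1.52), CXCR4 (1.42) and SOX8 (1.39) were higher in NF-YAl. IGF2BP1 (-2.72), CYP26B1 (-2.67), SOX5 (-2.50), RNF43 (-1.97), RARB (-1.87), LIN28B (-1.81), ENG (-1.58) and DHRS9 (-1.23) were lower in NF-YAl, as was VWF (-3.098). Adjusted p ranged from 1.24e-05 for VWF to 0.0093 for SOX5. In leave-one-out fits LIN28B and SOX5 were lost in 7 of 9, DHRS9 in 6, KRT15 in 3 (each NF-YAs library), SOX8 in 2 (NF-YAs B or C) and RARB in 2 (NF-YAl B or NF-YAs C), with adjusted p up to 0.0586.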

How the results depend on the processing

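LGR5 was called higher in both lines under every alternative. Of the stemness genes, the number called higher in NF-YAl stayed at 1 in every leave-one-out fit, and the number called lower ranged from 0 to 2. In NF-YAs the number called higher ranged from 1 to 2 and lower from 0 to 2. Between the lines it was 0 for higher and ranged from 0 to 1 for lower. Without the filter on low counts 1 gene (PROM1) was called lower in NF-YAl. With at least 10 counts in every library, 1 was higher in NF-YAs and 0 lower between the lines. With only the 2 groups compared, 0 were lower between the lines. With no fold limit, 1 (KLF4) was lower in NF-YAl and 2 (KLF4, BMI1) in NF-YAs. With limma on log2(TPM + 0.5), 1 was higher and 0 lower in NF-YAs and 0 lower between the lines. The cause of these changes was not tested, beyond the fewer genes or libraries entering some fits.

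Whether the replicate letters pair the libraries is not stated in the sources used here. Residual correlations ranged from -0.0728 to 0.214 for same-letter libraries and from -0.202 to 0.138 for libraries with different letters. These ranges overlap and so do not decide the question. Letter D occurs in NF-YAl only. With the letter as a block, which leaves that library without weight, 0 stemness genes were lower between the lines, and DEGs of all genes went from 1414 to 1547, 1598 to 1730 and 788 to 989.

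Small values that were not called changed sign. In NF-YAl against Empty, leave-one-out fits ranged from -0.19 to 0.23 for SOX2, -0.25 to 0.25 for POU5F1, -0.22 to 0.39 for LIN28B and -0.38 to 0.052 for BMI1. They changed sign for SOX2 without Empty B (-0.12) or NF-YAl D (-0.19), for LIN28B without Empty B (-0.13) or NF-YAl D (-0.22), for BMI1 without NF-YAl A (0.052) or B (0.037), and for POU5F1 without Empty A (0.25), NF-YAl B (0.0027) or NF-YAl D (0.10). Under the block SOX2 was at -0.088 and POU5F1 at 0.11, and with limma POU5F1 was at 0.29 and BMI1 at 0.17. With limma ALDH1A3 was at 0.051 in NF-YAs and NANOG at 0.011 between the lines. Leaving out the small structural RNA genes, chosen after seeing NF-YAl D, kept every count. LIN28B (4 to 36 counts a library), SOX2 (9 to 21), PROM1 (0 to 21) and ALDH1A1 (0 to 6) are limited by depth.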
